A study of Equus caballus with 37 samples.

Results

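The genes LARP4 and RBM27, which encode RNA-binding proteins, were followed in the blood of Arabian horses over a training season. Both rows were taken by their Ensembl identifiers, ENSECAG00000012479 for LARP4 and ENSECAG00000000883 for RBM27, and they are 2 of the 26991 genes in the count table. The first identifier carries the LARP4 name in the study, and the second was named there as the orthologue of RBM27. The study picked both genes from these same libraries, so a direction shared with the study is not independent evidence of it.

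Jugular blood was taken into RNA-stabilising tubes before the day's training, and 37 libraries were sequenced. T0 held 6 libraries of untrained horses, labelled 2.5 years old except for replicate 2, which is labelled 3 years old. The trained horses were labelled 3 years old, with 12 libraries in T1 (March, after slow canter), 11 in T2 (May, after intense gallop) and 8 in T3 (October, end of the racing season). Mares gave 2, 5, 4 and 4 of the libraries of T0, T1, T2 and T3, and stallions gave the rest. All horses were of 1 breed and 1 stud, and some of the untrained horses never entered training. The trained horses were sampled repeatedly, so libraries of T1, T2 and T3 share animals, but no label names the horse and the tests treat the libraries as separate. Training, season and, against T0, age cannot be told apart in this design. The sample titles name no month for T0, so which comparisons with T0 also span seasons was not settled here. Libraries were sequenced in several pools, and the T0 libraries were in some of these pools only. The study lists pools by sample numbers that the labels do not carry, so pool was not fitted here and its part in the differences from T0 was not tested.

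LARP4 is a La-related protein that binds the poly(A) tail of mRNA and the poly(A)-binding protein, and it is known for stabilising mRNA and the length of its tail. RBM27 has an RNA recognition motif and a zinc finger, and it is known as a partner of the nuclear machinery that carries polyadenylated RNA to the RNA exosome for decay. Blood RNA comes from white cells, platelets and young red cells together. A lower level of either transcript in whole blood cannot be told apart from a smaller share of the cells that carry it. None of the markers listed for those cells is paired with an identifier in the sources used here, so the tissue label was not checked against them.

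The study measured LARP4 by quantitative PCR as well, and its primers are shown because they define what that assay amplified. They are written 5′ to 3′, with the last 5 bases at the 3′ end, from which the polymerase extends, in capitals.
LARP4 forward primer: caaagccatcgaggaCAAAT
LARP4 reverse primer: tctcgtaatggctgcACAAG
Each primer has 20 bases, of which 9 in the forward and 10 in the reverse primer are G or C. Their genome position was not determined here. In the RefSeq gene table of the horse assembly TB-T2T, which is not the build of the counts, LARP4 lies between LIMA1 and DIP2B and overlaps FAM186A and 2 pseudogenes. RBM27 overlaps 1 long non-coding RNA gene in that table and has POU4F3 as its neighbour. The library kit does not mark strand, so reads from overlapping genes on the other strand cannot be told apart from reads of these genes.

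Library totals ranged from 3810631 to 14932603 counts. Values are given as CPM, counts per 1000000 of the total scaled by the TMM factor, which corrects each library for its composition and tends to be low where a few abundant genes hold much of the count. The TMM factor was 1.17 to 1.24 in T0, 0.949 to 1.21 in T2 and 1.05 to 1.25 in T3. In T1, 7 libraries had factors from 0.922 to 1.14, whereas replicates 1, 2, 3, 4 and 11 stood apart with 0.410 to 0.696. The edgeR comparisons of both genes with T1 are therefore given with and without these 5. T1 replicate 11 had the lowest total and 11559 genes detected, the fewest of any library. Counts of LARP4 ranged from 7 to 554 and those of RBM27 from 13 to 872.

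LARP4 was highest in T0 and T3 and lowest in T1. In T0 its lowest, median and highest values were 15.5, 19.6 and 25.8 CPM, with a mean of 20.6 ± 4.14 (SD, n = 6). In T1 they were 3.31, 7.10 and 12.2 CPM, with a mean of 6.78 ± 2.69 (SD, n = 12). T1 lay below T0 in each of its 12 libraries, without overlap, and its 5 libraries of low TMM factor held the 5 lowest values of the period. In T2 the lowest, median and highest values were 4.40, 8.81 and 15.2 CPM, with a mean of 9.81 ± 3.65 (SD, n = 11), and all 11 were again below the lowest T0 library. In T3 they were 12.1, 20.5 and 31.6 CPM, with a mean of 20.7 ± 7.03 (SD, n = 8), and the range of T3 enclosed that of T0.

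RBM27 took the same order of periods by its means. In T0 its lowest, median and highest values were 26.1, 35.5 and 39.3 CPM, with a mean of 34.4 ± 5.12 (SD, n = 6). In T1 they were 8.31, 13.8 and 17.7 CPM, with a mean of 13.8 ± 2.55 (SD, n = 12). These 2 periods did not overlap either. The SD of RBM27 in T1 on the log2 CPM scale was 0.28, at percentile 7.17 of the 12025 genes that passed the filter in all periods together, for which the median SD was 0.66. This low place was seen in T1 alone, as RBM27 was at percentile 45.0 in T0, 68.0 in T2 and 71.9 in T3. The median SD of all genes was also lower there, at 0.24, 0.37 and 0.28. In T2 the lowest, median and highest values were 9.71, 17.5 and 26.8 CPM, with a mean of 18.1 ± 5.69 (SD, n = 11), and 10 of the 11 libraries were below every T0 library. In T3 they were 24.7, 39.3 and 50.1 CPM, with a mean of 37.2 ± 9.76 (SD, n = 8).

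The T3 libraries of both genes left a gap in the middle of their range. For LARP4, replicates 1, 2, 4 and 8 had 12.1 to 16.8 CPM and replicates 3, 5, 6 and 7 had 24.2 to 31.6 CPM. For RBM27 the same replicates had 24.7 to 35.2 and 43.4 to 50.1 CPM. The TMM factors of the first 4 were 1.05 to 1.13 and those of the other 4 were 1.17 to 1.25. This is a description of the values, and the part of library composition in the gap was not tested.

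**Figure D1:**
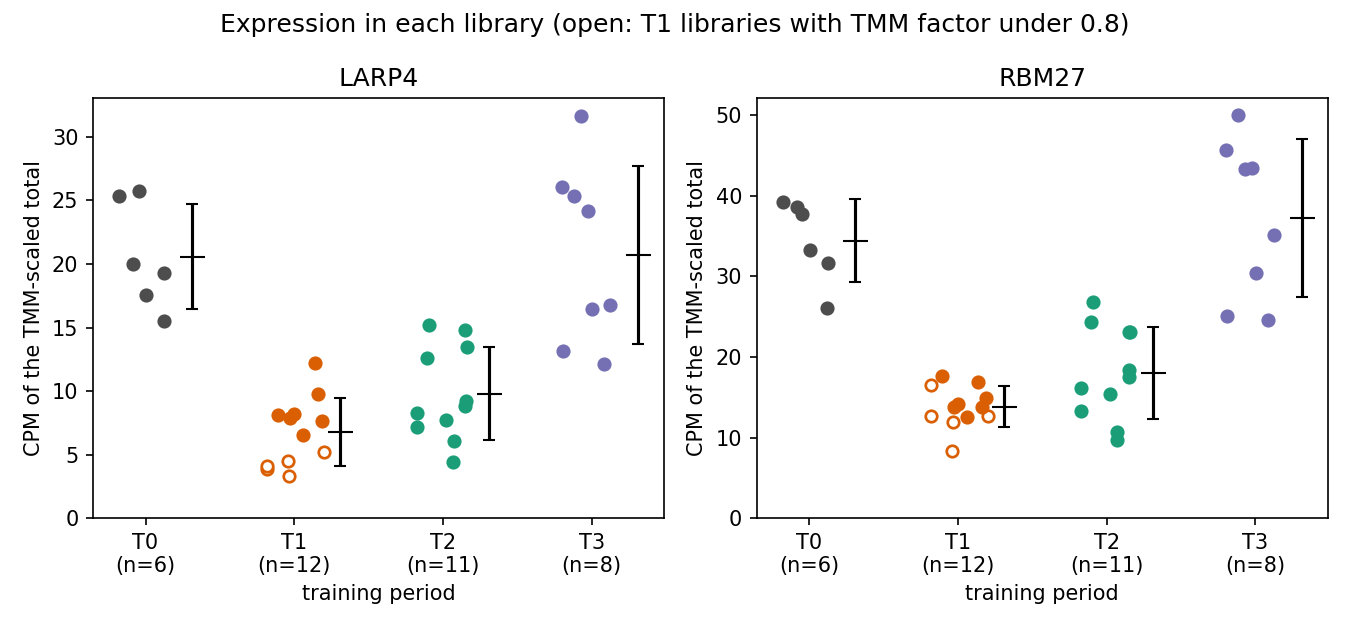
CPM of the TMM-scaled total (vertical axis) of LARP4 and RBM27 in each of the 37 libraries by training period, with the mean and SD beside the points. Open circles are the 5 T1 libraries with a TMM factor under 0.8, which hold the lowest T1 values of LARP4 (3.31 to 5.20 CPM), while those of RBM27 (8.31 to 16.5 CPM) lie among the other T1 libraries except for the lowest 2.

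The first comparison asked how untrained horses differed from horses after slow canter. LARP4 was 3.02-fold lower in T1 than in T0, a log2 fold change of -1.59 with a standard error of 0.23 and an adjusted p of 4.24e-05 in edgeR's quasi-likelihood test. RBM27 was 2.51-fold lower, with a log2 fold change of -1.33, a standard error of 0.14 and an adjusted p of 2.49e-06. A gene was called here when its Benjamini-Hochberg adjusted p was below 0.05 and its fold change at least 1.3, and both genes were called. In this comparison 58.1% of the 11544 genes tested were called, 28.9% as higher and 29.2% as lower in T1, so that a call alone says little about these 2 genes. A larger fall than that of LARP4 was fitted for 5.06% of the genes tested, and a larger fall than that of RBM27 for 9.25%.

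Without the 5 T1 libraries of low TMM factor, both genes were still called as lower in T1. LARP4 fell by 1.22 on the log2 scale with a standard error of 0.15 (adjusted p = 1.67e-05, edgeR), and RBM27 fell by 1.18 with a standard error of 0.11 (adjusted p = 2.95e-06). With the log2 TMM factor as a term in the fit, the values were -1.03 for LARP4 (adjusted p = 0.000522) and -1.14 for RBM27 (adjusted p = 2.63e-05).

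Between T0 and T2, after intense gallop, both genes were again lower in the trained horses. LARP4 was 2.05-fold lower, with a log2 fold change of -1.04, a standard error of 0.22 and an adjusted p of 0.00272 (edgeR). RBM27 was 1.87-fold lower, with a log2 fold change of -0.90, a standard error of 0.19 and an adjusted p of 0.00252. Of the 11662 genes tested, 33.4% were called, 17.0% as higher and 16.5% as lower in T2. A larger fall was fitted for 3.90% of the genes than for LARP4 and for 5.81% than for RBM27. Neither gene kept its call with the log2 TMM factor as a term, where LARP4 had -0.36 (adjusted p = 0.553) and RBM27 -0.28 (adjusted p = 0.562). In that fit edgeR called 0 genes, with 1180 of 11662 at an unadjusted p under 0.05. The factor was 1.17 to 1.24 in T0 and 0.949 to 1.21 in T2, so it differs with the period. The fit therefore cannot separate a difference between these periods from one in the factor.

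Between T0 and T3 neither gene passed the test. The log2 fold change of LARP4 was -0.0057, with a 95% confidence interval from -0.42 to 0.41 and an adjusted p of 0.986 (edgeR). That of RBM27 was 0.10, with an interval from -0.23 to 0.42 and an adjusted p of 0.685. In this comparison 19.6% of 11696 genes were called, 10.4% as higher and 9.21% as lower in T3. The intervals leave room for differences of up to about 0.42 on the log2 scale in either gene, so an equal level of untrained and season-end horses is not shown. The study reported both genes as differing between T0 and T3, with LARP4 listed as up-regulated by sequencing. Its text, in contrast, described LARP4 as highest in untrained horses by quantitative PCR. The fold changes it listed for T3 against T0 have the same sign in both methods, which was not resolved here.

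From T1 to T2, between the canter and the gallop phase, the fitted values were higher in T2 and missed the threshold in both genes. LARP4 had a log2 fold change of 0.52, with a standard error of 0.23 and an adjusted p of 0.0742 (edgeR), and 9 of the 11 T2 libraries were above the T1 median. RBM27 had 0.39, with a standard error of 0.16 and an adjusted p of 0.0637, and 8 of the 11 T2 libraries were above the T1 median. Of 11188 genes, 32.0% were called, 11.2% as higher and 20.8% as lower in T2. Without the 5 T1 libraries of low TMM factor the values were 0.20 for LARP4 (adjusted p = 0.684) and 0.29 for RBM27 (adjusted p = 0.471), and with these libraries left out edgeR called 0 of 11456 genes, with 1444 at an unadjusted p under 0.05. With the log2 TMM factor as a term they were 0.010 for LARP4 (adjusted p = 1) and 0.16 for RBM27 (adjusted p = 0.928).

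Single libraries decided the call of this step. LARP4 was called without T1 replicate 10 (0.64, adjusted p = 0.0305, edgeR) or without T2 replicate 1 (0.62, adjusted p = 0.0355). RBM27 was called when any one of T1 replicates 6 and 10 or T2 replicates 1, 2 and 7 was left out, with log2 fold changes from 0.42 to 0.48 and adjusted p from 0.0225 to 0.0496 (edgeR). T2 replicate 1 held the lowest T2 value of both genes, and T1 replicate 10 the highest T1 value of LARP4.

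From T1 to T3, between the canter phase and the end of the racing season, both genes rose. LARP4 was 3.02-fold higher in T3, with a log2 fold change of 1.59, a standard error of 0.23 and an adjusted p of 1.22e-05 (edgeR), and 7 of the 8 T3 libraries were above every T1 library. RBM27 was 2.69-fold higher, with a log2 fold change of 1.43, a standard error of 0.15 and an adjusted p of 4.13e-07, and its T3 libraries did not overlap with those of T1. The background was the widest of the 6 comparisons, with 65.0% of 11471 genes called, 32.9% as higher and 32.0% as lower in T3. A larger rise was fitted for 7.17% of the genes than for LARP4 and for 9.69% than for RBM27. Without the 5 T1 libraries of low TMM factor, LARP4 rose by 1.26 (standard error 0.20, adjusted p = 4.75e-05) and RBM27 by 1.31 (standard error 0.16, adjusted p = 3.67e-06). With the log2 TMM factor as a term they rose by 1.02 (adjusted p = 0.000404) and 1.22 (adjusted p = 1.58e-05).

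From T2 to T3, over the racing season, both genes rose. LARP4 was 2.08-fold higher in T3, with a log2 fold change of 1.06, a standard error of 0.22 and an adjusted p of 0.000802 (edgeR). RBM27 was 2.04-fold higher, with a log2 fold change of 1.03, a standard error of 0.19 and an adjusted p of 0.00033. In each gene 6 of the 8 T3 libraries were above every T2 library. Of 11599 genes, 44.0% were called, 22.5% as higher and 21.5% as lower in T3, and a larger rise was fitted for 6.27% of them than for LARP4 and 6.77% than for RBM27. With the log2 TMM factor as a term both calls held at smaller values, 0.62 for LARP4 (adjusted p = 0.00313) and 0.65 for RBM27 (adjusted p = 0.000609). The study also listed LARP4 as up-regulated from T2 to T3 by sequencing. Its quantitative PCR of LARP4 was described as rising from T1 to T3. It was listed as not significant both from T1 to T2 and from T2 to T3.

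**Figure D2:**
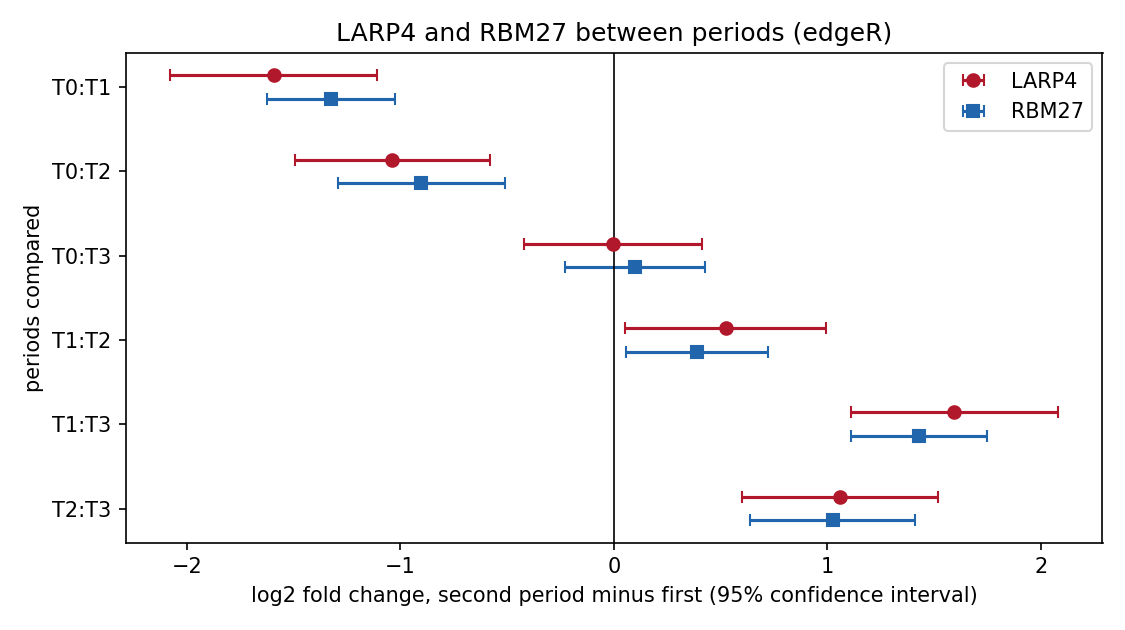
Log2 fold changes (horizontal axis, second period minus first) with 95% confidence intervals from edgeR for LARP4 (circles) and RBM27 (squares) in the 6 comparisons of periods (vertical axis). T0:T1 and T0:T2 lie below 0, T1:T3 and T2:T3 above 0, and the T0:T3 intervals include 0, while those of T1:T2 exclude 0 before adjustment only.

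The count of LARP4 was then set against that of RBM27 within each library, which needs no scaling between libraries. The counts are not divided by transcript length, so the ratio is compared between periods and does not rank the genes. LARP4 was 59.7% ± 6.44 of the RBM27 count in T0 (SD, n = 6; range 51.7% to 68.3%). It was 48.8% ± 15.5 in T1 (n = 12; 23.3% to 72.1%), 53.6% ± 5.11 in T2 (n = 11; 45.4% to 64.3%) and 54.9% ± 7.95 in T3 (n = 8; 47.8% to 73.0%). All periods overlapped.

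The largest difference of the log2 ratio was -0.36 from T0 to T1, with a standard error of 0.16 (two-sided exact permutation test, p = 0.115, adjusted over the 6 pairs 0.284). The difference from T0 to T2 was -0.15, with a standard error of 0.08 (exact permutation p = 0.0522, adjusted p = 0.284). For the remaining pairs the differences were -0.12 to 0.24 and the adjusted p 0.284 to 0.698 by permutation. The ratio was spread most in T1, where replicates 1, 2, 3 and 4 had 23.3% to 41.1% and the other 8 libraries 45.9% to 72.1%. In those 4 libraries it rests on 15 to 37 counts of LARP4. Without the 5 T1 libraries of low TMM factor the difference from T0 to T1 was -0.05 (standard error 0.11, exact permutation test, adjusted p = 0.698).

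**Figure D3:**
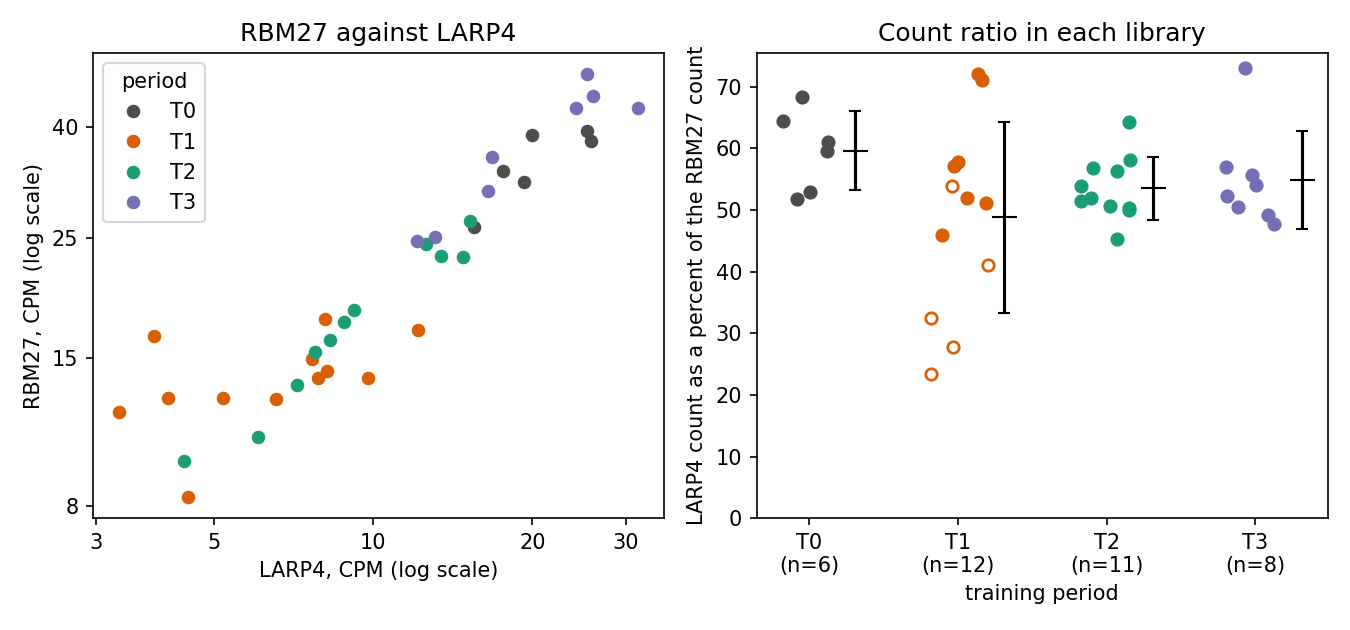
Left, CPM of RBM27 against CPM of LARP4 on log axes in each library, coloured by period; right, the LARP4 count as a percent of the RBM27 count by period, with mean and SD and open circles for the 5 T1 libraries of low TMM factor. The ratios of T0, T2 and T3 lie between 45.4% and 73.0%, and 4 of the T1 libraries lie below them.

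Within periods the genes moved together in T2, where Pearson's r of their log2 CPM was 0.98 and Spearman's rho 0.96 (n = 11, permutation p = 1e-05 and 2e-05, adjusted over 12 relations 0.00012 and 0.00024); the first of these is the smallest that the permutations can give. Leaving out the 2 libraries farthest from the median of LARP4 gave r = 0.96. Both genes also followed the TMM factor over the 11 T2 libraries (r = 0.90 for LARP4 and 0.93 for RBM27). The part of library composition in their shared movement was not tested. In T0 r was 0.84 and rho 0.77 (n = 6, exact permutation p = 0.0333 and 0.103, adjusted p = 0.0686 and 0.154), with r = 0.88 over the 4 libraries left without the farthest ones. In the 7 T1 libraries of higher TMM factor r was 0.54 and rho 0.36 (exact permutation p = 0.201 and 0.444, adjusted p = 0.241 and 0.533), and r turned to -0.31 without the 2 farthest, so no relation was found there. In T3 r was 0.94 and rho 0.83 (n = 8, exact permutation p = 0.00156 and 0.0154, adjusted p = 0.00468 and 0.0462), with r = 0.97 without the 2 farthest, over libraries that leave the gap described above.

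Over all 37 libraries, with the differences between periods included, the log2 CPM of the genes had a Pearson's r of 0.94, and 0.80 after the period means were taken out. This r serves as a measure of likeness alone. By it RBM27 was in place 109 among 12024 genes for LARP4, and LARP4 in place 101 for RBM27. An r over 0.9 with LARP4 was found for 373 genes (3.10%) and with RBM27 for 355 genes (2.95%). The closest rows had no name in the sources used here. They were ENSECAG00000011406 (r = 0.97) for LARP4 and ENSECAG00000008835 (r = 0.98) for RBM27. All rows share the library totals and TMM factors, and these values are descriptions.

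The genes were also set against the reference genes of the study's PCR, which are SDHA, a subunit of succinate dehydrogenase, and GAPDH, a glycolytic enzyme. SDHA differed little between periods, with means from 190.7 to 202.4 CPM, and was called in none of the 6 edgeR comparisons (adjusted p from 0.472 to 0.948). GAPDH was higher in T1 (1680 ± 392 CPM, SD, n = 12) than in T0 (1163 ± 153, n = 6; log2 fold change 0.51, adjusted p = 0.0253, edgeR) and lower in T3 than in T1 (-0.41, adjusted p = 0.0423). The reference value of a library was the mean of their log2 counts.

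Relative to the reference genes, LARP4 was lower by 1.89 on the log2 scale in T1 than in T0 (mean log2 ratio -6.47 ± 0.67, n = 12, against -4.57 ± 0.12, n = 6). The exact permutation test gave p = 5.39e-05, the smallest it allows here, and 0.000162 after adjustment over 12 tests. RBM27 was lower by 1.53 (-5.35 ± 0.35 against -3.82 ± 0.13, exact permutation test, adjusted p = 0.000162). Between T0 and T2 the differences were -1.27 for LARP4 and -1.11 for RBM27 (exact permutation test, adjusted p = 0.00111 in both). In all 4 of these comparisons every trained library was below every untrained one. GAPDH, itself higher in T1, enlarges the T0:T1 falls as part of the reference. Under 4 alternatives, among them each reference gene alone and T1 without its 5 libraries of low TMM factor, both T0:T1 calls held. LARP4 then ranged from -2.19 to -1.42 and RBM27 from -1.83 to -1.23.

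LARP4 rose relative to the reference genes by 1.80 from T1 to T3 and by 1.18 from T2 to T3 (exact permutation test, adjusted p = 4.76e-05 and 0.00111). RBM27 rose by 1.57 and 1.15 (exact permutation test, adjusted p = 4.76e-05 and 0.000382). T1 and T3 did not overlap in either gene. Under the same 4 alternatives the T1:T3 rise was 1.33 to 2.06 for LARP4 and 1.32 to 1.82 for RBM27, and both calls held. Between T0 and T3 the differences were -0.09 for LARP4 and 0.04 for RBM27 (exact permutation test, adjusted p = 0.749 and 0.854).

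On this scale LARP4 passed the threshold from T1 to T2, with a difference of 0.62 and a standard error of 0.28 (permutation test with 100000 resamples, p = 0.0367, adjusted p = 0.0489). RBM27 had 0.42, with a standard error of 0.20 (p = 0.0466, adjusted p = 0.0559, permutation test). The LARP4 call was lost without any one of T1 replicates 1, 2, 3, 4, 5, 8 and 11 or T2 replicates 3, 4, 5, 6, 8, 9, 10 and 11, with adjusted p from 0.0533 to 0.0961 by permutation. The RBM27 difference passed without T1 replicate 6 or T2 replicate 1, 2 or 7, with adjusted p from 0.0125 to 0.0346 by permutation. Without the 5 T1 libraries of low TMM factor the differences were 0.15 for LARP4 and 0.26 for RBM27 (adjusted p = 0.713 and 0.397, permutation test).

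**Figure D4:**
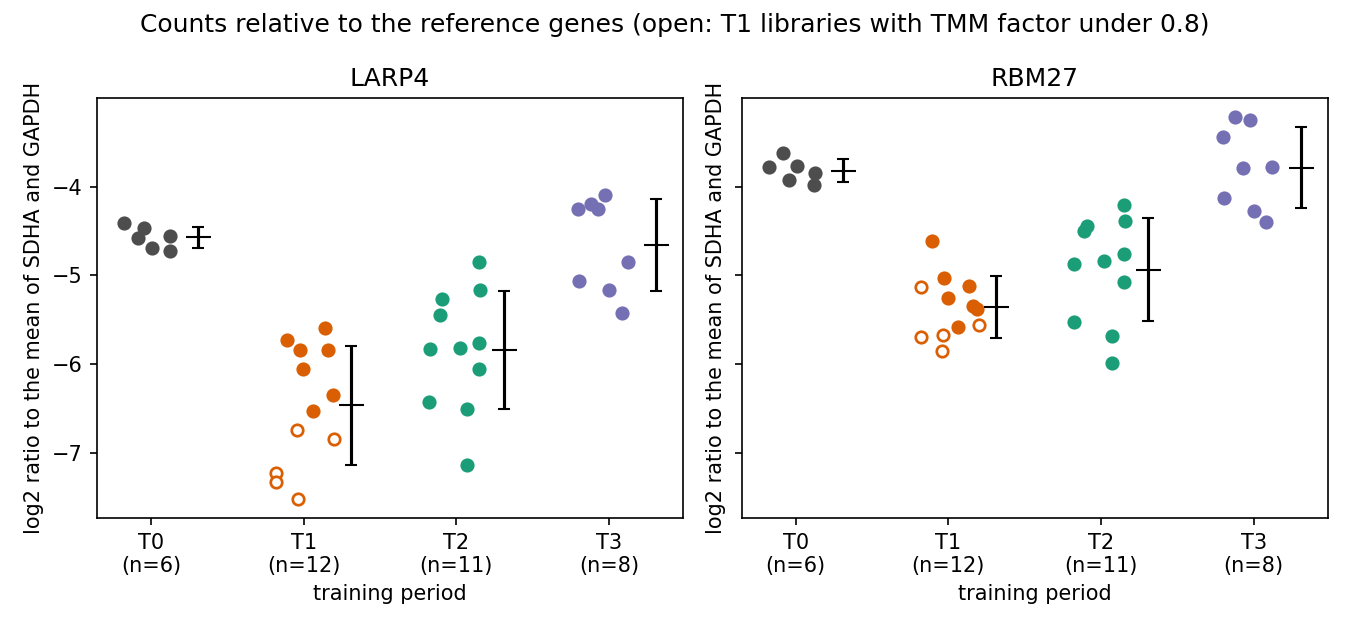
Log2 ratio of the LARP4 and RBM27 counts to the mean of the log2 counts of SDHA and GAPDH (vertical axis) in each library by period, with mean and SD and open circles for the 5 T1 libraries of low TMM factor. Every T1 and T2 library lies below every T0 library in both genes.

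The relation of both genes to the TMM factor passed the threshold among the T2 libraries. For LARP4 r was 0.90 and rho 0.93 (n = 11, permutation p = 0.00016 and 0.00015, adjusted over the 12 relations 0.00064 and 0.0009), and r was 0.88 without the 2 libraries of most distant factor. For RBM27 r was 0.93 and rho 0.89 (n = 11, permutation p = 6e-05 and 0.00049, adjusted p = 0.00036 and 0.00196), with r = 0.88 without those 2. In T3 r was 0.70 for LARP4 and 0.75 for RBM27 (n = 8, exact permutation p = 0.0559 and 0.0343, adjusted p = 0.0958 and 0.0686), with rho of 0.67 and 0.79 (adjusted p = 0.154 and 0.067, exact permutation), and r of 0.87 and 0.90 without the 2 farthest. In T0 the values were -0.64 for LARP4 and -0.58 for RBM27 (n = 6, exact permutation p = 0.172 and 0.236, adjusted p = 0.229 and 0.257), with rho of -0.77 and -0.31 (adjusted p = 0.154 and 0.615, exact permutation), and r turned to 0.20 and 0.44 without the 2 farthest. Among the 7 T1 libraries of higher factor r was 0.25 for LARP4 and 0.69 for RBM27 (exact permutation p = 0.586 and 0.0974, adjusted p = 0.586 and 0.146), with rho of 0.21 and 0.46 (adjusted p = 0.662 and 0.403, exact permutation), and r of 0.39 and 0.66 without the 2 farthest.

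The 5 T1 libraries of low factor had 4.19 ± 0.71 CPM of LARP4 (SD, n = 5), against 8.62 ± 1.84 (n = 7) in the other T1 libraries, and the sets did not overlap. RBM27 had 12.4 ± 2.91 and 14.8 ± 1.83 CPM in the same sets, which overlapped. Mares gave 4 of the 5 and 1 of the 7 libraries, so sex and TMM factor were largely, though not wholly, confounded within T1. The stallion of the low set, replicate 2, had 3.85 CPM of LARP4 and 16.5 of RBM27. The mare of the other set, replicate 9, had 9.78 CPM of LARP4 and 13.8 of RBM27. These are single libraries, and the parts of sex and factor within T1 were not tested. The study also reports pools and mapping rates that differ among its T1 samples. They were not tied to single libraries here, and their part was not tested.

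**Figure D5:**
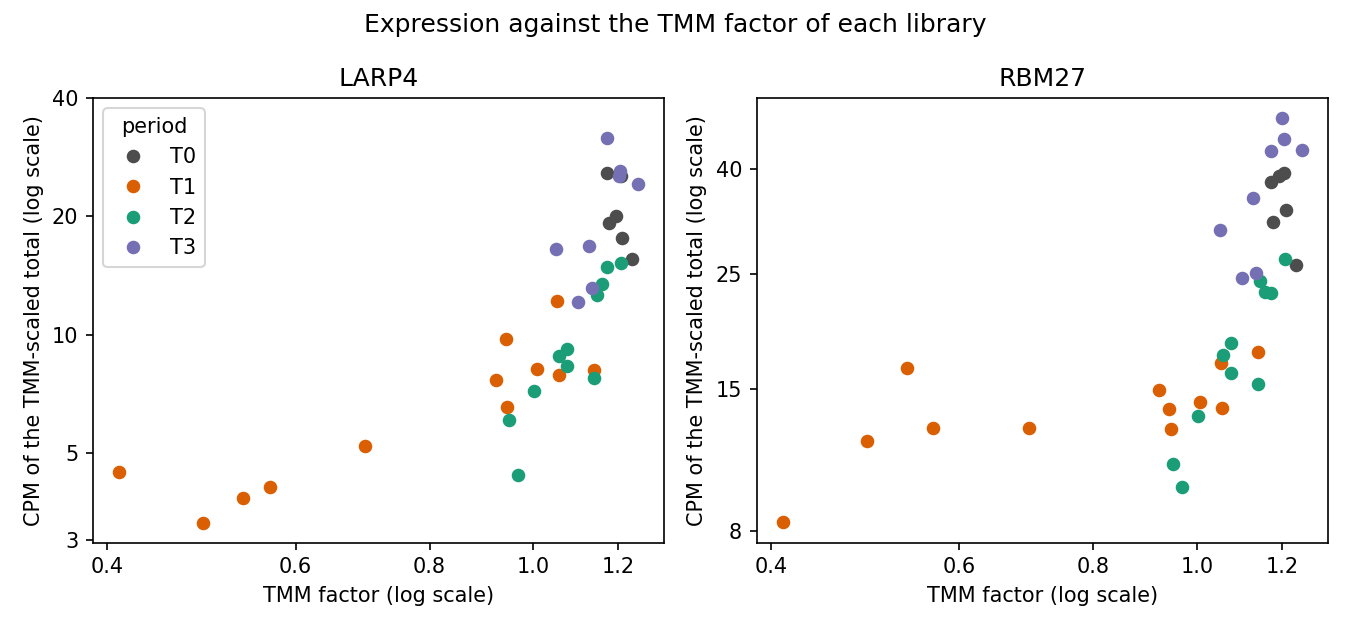
CPM of LARP4 and RBM27 (vertical log axis) against the TMM factor (horizontal log axis) of each library, coloured by period. The 5 T1 libraries from 0.410 to 0.696 lie apart from all others, and the T2 libraries rise with the factor in both genes.

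Neither gene passed the test between mares and stallions. With period in the fit, the log2 difference of stallions minus mares was 0.11 for LARP4 (standard error 0.17, adjusted p = 0.719, edgeR) and 0.10 for RBM27 (standard error 0.12, adjusted p = 0.621). This fit called 4 of 12025 genes, 0.0333%. The interaction of sex and period had an adjusted p of 0.736 for LARP4 and 0.84 for RBM27 (edgeR). In T1 mares had 5.37 ± 2.56 CPM of LARP4 (n = 5) and stallions 7.78 ± 2.47 (n = 7), and RBM27 had 11.9 ± 2.09 and 15.2 ± 1.86 CPM in the same libraries. In T3 RBM27 had 37.3 ± 11.5 CPM in mares and 37.2 ± 9.52 in stallions (n = 4 each).

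A list of 8 further genes held genes of splicing, the ribosome and small RNA, with a nuclear pore gene and a cytidine deaminase gene. Each had an identifier in the study and was tested, and the study chose them on these libraries too. In T0:T1, where LARP4 and RBM27 fell, 7 of the 8 rose and 1 fell, against 28.9% and 29.2% of all genes tested. Those that rose included the splicing factor gene SYF2, at 44.3 ± 4.89 CPM in T0 (n = 6) and 107 ± 37.8 in T1 (n = 12; adjusted p = 0.000247, edgeR), and the ribosomal protein gene RPL23A, whose reads near-identical copies may share. POM121C, a nuclear pore gene, fell by 1.71 on the log2 scale (standard error 0.29, adjusted p = 0.000151, edgeR). The median log2 fold change of the 8 was 1.22, against -0.05 over the 11544 genes tested.

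In T1:T3 and T2:T3, where both RNA-binding genes rose, POM121C was the 1 gene of the list that rose, by 1.94 and 0.80 (adjusted p = 6.5e-06 and 0.00411, edgeR), while 7 and 6 of the 8 fell, against 32.0% and 21.5% of all genes tested. In T0:T2 5 of the 8 rose, against 17.0% of all genes, with POM121C at -0.55 (adjusted p = 0.0614). In T1:T2 1 rose and 6 fell, against 11.2% and 20.8% of all genes, and neither LARP4 nor RBM27 was called. Without the 5 T1 libraries of low TMM factor edgeR called 0 of 11456 genes in T1:T2, so none of the 8 was called. The list counts of T0:T1 and T1:T3 were not made without those libraries. In T0:T3 the 1 gene of the list that was called was APOBEC3Z2E, a cytidine deaminase gene, which fell by 0.63 (adjusted p = 0.00403, edgeR), against 9.21% of all genes called as lower. The comparisons share their libraries, so these counts are not separate observations. Since the study chose the 8 genes on these libraries, their shares beside those of all genes are not a result about RNA genes in general.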

How the data were processed

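The authors trimmed the reads with Flexbar, aligned them with STAR to EquCab2 with Ensembl annotation and estimated gene counts with RSEM. The deposited table holds these counts rounded to whole numbers, without normalization, and was used as it stands. The 3 smaller count tables the authors deposited hold part of the same genes and were not used. No 2 libraries were duplicates, as chi-square divided by its degrees of freedom was at least 15.4 in every pairing.

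In R 4.3.3, genes were filtered with filterByExpr, scaled with TMM and compared 2 periods at a time with the quasi-likelihood F-test of edgeR 4.0.16, without a block, since no label names the horse. The test was checked on simulated data. One CPM at the median total of 10611594 counts rests on 10.6 reads, and intervals cover the spread between libraries, which may be partly technical. Count ratios were compared with two-sided permutation tests of the means. RNA-binding genes, the reference genes, the list of 8 and the genes of highest r were named by rule, with at most 2 identifiers printed.

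Alternatives were DESeq2 1.42.0, RLE factors, library totals alone, no filter, all libraries in one fit, sex, the replicate number, the log2 TMM factor or the first surrogate variable (sva 3.50.0) as a term, abundant genes left out, thinned libraries and each library left out. Leaving out the 5 T1 libraries and keeping the genes with 6 or more counts throughout were added after the data were seen. The genes and lists were chosen with earlier results of these data known. The same replicate number in the labels joined a mare with a stallion in 3 to 5 cases per comparison, so the numbers do not mark a horse. La-related, poly(A), exosome and cell marker lists were not analysed here, as the sources used pair no identifier with any symbol on them.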

Additional observations from a re-analysis of the deposited data

Results flagged for a closer look

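The ratio of the LARP4 to the RBM27 count was checked, with the CPM of each gene, for single libraries far from the others in T0 and T3, the periods with 4 to 10 libraries. T3 replicate 7 stood apart, with a log2 ratio of -0.45 against -0.81 to -1.06 in the other 7 T3 libraries, that is 73.0% against 47.8% to 57.0%. Its gap to the next library was 0.586 of the range of the period, above the critical value of 0.526. It held the highest LARP4 value of all 37 libraries (31.6 CPM, 554 counts) and an RBM27 value of 43.4 CPM (759 counts), below 3 other T3 libraries. Chance alone marks about 1 in 20 such groups, and 5 measures of these genes were checked in each of the 2 periods. Without this library the difference of the log2 ratio from T2 to T3 changed from 0.03 to -0.03.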

How the results depend on the processing

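Both genes kept the direction and the call of T0:T1, T1:T3 and T2:T3 under every alternative and without any single library. With libraries left out one at a time, LARP4 ranged from -1.68 to -1.53 and RBM27 from -1.41 to -1.28 in T0:T1, LARP4 from -1.12 to -0.96 and RBM27 from -0.97 to -0.84 in T0:T2, LARP4 from 1.48 to 1.71 and RBM27 from 1.36 to 1.497 in T1:T3, and LARP4 from 0.95 to 1.14 and RBM27 from 0.96 to 1.10 in T2:T3. T0:T2 lost both calls with the log2 TMM factor as a term (-0.36 and -0.28), and the cause was not tested.

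In T1:T2 LARP4 was called in the fit of all libraries (0.50, adjusted p = 0.0497) and with the 6-count genes in DESeq2 (0.61, adjusted p = 0.0306), and RBM27 with library totals alone (0.78, adjusted p = 0.0449) and with the 6-count genes in edgeR (0.50, adjusted p = 0.0309) and DESeq2 (0.48, adjusted p = 0.0172). Without single libraries LARP4 had 0.45 to 0.64 and RBM27 0.33 to 0.48. The first surrogate variable as a term gave 0.10 (adjusted p = 0.884) and 0.16 (adjusted p = 0.75), where edgeR called 1 gene.

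In T0:T3, where neither gene was called, LARP4 changed sign with DESeq2 (0.0093), RLE factors (0.011), all libraries (0.011), the TMM factor (0.092), abundant genes left out (0.0086), the 6-count genes in edgeR (0.026) and DESeq2 (0.024), and lay between -0.11 and 0.088 without single libraries. RBM27 had -0.024 in thinned libraries and 0.030 to 0.18 without single libraries.

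The count ratio changed sign without the 5 T1 libraries in T1:T2 (-0.11) and T1:T3 (-0.076), and ranged from -0.029 to 0.058 in T2:T3 without single libraries. Against the reference genes, LARP4 in T1:T2 lost its call by medians (0.61), against SDHA alone (0.47) and without the 5 T1 libraries (0.15), and had 0.53 to 0.75 without single libraries. RBM27 in T1:T2 was called against GAPDH alone (0.58) and had 0.35 to 0.53 without single libraries. In T0:T3 LARP4 changed sign by medians (0.014) and had -0.17 to 0.020 without single libraries, and RBM27 had -0.012 against GAPDH alone and -0.046 to 0.12 without single libraries. The sex difference of LARP4 was -0.11 with the TMM factor as a term.

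The replicate number does not mark a horse, since it joined a mare with a stallion in 3 to 5 cases per comparison. Same-numbered libraries correlated from -0.35 to 0.52 in their deviations, a range that cannot by itself decide on pairing. The number as a replicate block gave LARP4 0.58 in T1:T2 (adjusted p = 0.0266, called), RBM27 0.35 (adjusted p = 0.105) and changed no other call of these genes. It moved the genes called in T0:T3 from 2295 to 1447.

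Genes called moved by over 1.5 times with the TMM factor as a term in T0:T1 (6708 to 2795), T0:T2 (3900 to 0, with 1180 at an unadjusted p under 0.05), T1:T2 (3584 to 0, with 649), T1:T3 (7452 to 4804) and T2:T3 (5107 to 2965). All libraries in one fit gave 2113 in T0:T2 and 717 in T0:T3, thinning 1449 in T0:T3 and totals alone 1754 in T1:T2. The 6-count genes gave 2354 (edgeR) and 2519 (DESeq2) in T0:T2 and 3212 and 3177 in T2:T3. That setting tested 7885 genes, against 11662 in T0:T2 and 11599 in T2:T3 in the main fit. Its counts therefore come from a smaller set of genes and do not by themselves show a smaller share called. LARP4 has 7 counts and RBM27 13 in T1 replicate 11, which limits what that library can show.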
